A study of Mus musculus with 6 samples.

Results

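The genes described here are 29 genes of cholesterol synthesis and sterol control in mouse retina, chosen as a fixed list of symbols: 18 enzymes that build cholesterol, 5 genes that sense sterols, 1 sterol carrier and 5 genes of the liver X receptor (LXR) and cholesterol efflux. Each symbol was found in 1 row of the 55450 genes in the table. All 29 passed the filter of a mean of at least 1 FPKM (fragments per kilobase of gene, scaled to library size). With Myrf added, 13674 genes were tested. RNA of whole retina was sequenced in 6 libraries of C57BL/6 mice aged 8 weeks. The labels give 3 libraries as Myrf-kd, from Myrf +/− mice that carry 1 altered copy of Myrf, and 3 as wild type (WT). Myrf encodes a membrane-bound transcription factor known for switching on myelin genes. Which part of Myrf is altered is not stated in the labels, nor whether the libraries are separate animals, so p-values measure the spread between these libraries, which may be technical in part.

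Cholesterol is built from acetyl units. The mevalonate enzymes make isoprenoid units and join them to farnesyl diphosphate, and the sterol branch folds squalene into lanosterol and trims that into cholesterol. The transcription factor SREBP2, the product of Srebf2, switches these enzymes on when membrane sterol is low, since the escort Scap then carries it out of the endoplasmic reticulum, and the Insig proteins hold it back when sterol is plentiful. LXRs work the other way, as receptors for oxidised sterols that raise the efflux pumps Abca1 and Abcg1. The retina makes much of its own cholesterol, for the discs and synapses of its neurons, and also takes it up from the blood.

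Promoter windows of 3 members are shown first, because the sterol element, CCAAT and GC motifs are the letters through which SREBP and its partners NF-Y and Sp1 are known to act. They come from RefSeq (GRCm38.p6), run 5′ to 3′ on the gene's strand from 250 bases before to 50 bases after the start, and carry matches to TCACNCCAC, CCAAT and GGGCGG on either strand in capitals. Hmgcs1, at chr13:119690101-119690400 on the plus strand, was shown as the only member with a window that matched the sterol element pattern TCACNCCAC. Other forms of the sterol element were not searched, so a window without a match may still hold one. Mvk, at chr5:114444019-114444318 on the plus strand, and Cyp51, at chr5:4104648-4104947 on the minus strand, were picked after their values were seen, as enzymes whose groups did not overlap.
Hmgcs1: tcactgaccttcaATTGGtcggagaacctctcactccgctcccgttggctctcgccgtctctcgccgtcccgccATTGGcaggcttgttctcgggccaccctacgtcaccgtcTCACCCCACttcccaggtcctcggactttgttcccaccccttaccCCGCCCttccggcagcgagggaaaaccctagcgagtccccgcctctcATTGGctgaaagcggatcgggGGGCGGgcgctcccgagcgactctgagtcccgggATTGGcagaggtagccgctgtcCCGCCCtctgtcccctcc
Mvk: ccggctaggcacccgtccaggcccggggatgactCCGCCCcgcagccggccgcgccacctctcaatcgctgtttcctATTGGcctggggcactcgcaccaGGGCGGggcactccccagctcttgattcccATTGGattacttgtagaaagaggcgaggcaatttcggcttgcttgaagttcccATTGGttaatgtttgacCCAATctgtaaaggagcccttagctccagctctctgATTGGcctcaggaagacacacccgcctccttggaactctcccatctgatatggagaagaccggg
Cyp51: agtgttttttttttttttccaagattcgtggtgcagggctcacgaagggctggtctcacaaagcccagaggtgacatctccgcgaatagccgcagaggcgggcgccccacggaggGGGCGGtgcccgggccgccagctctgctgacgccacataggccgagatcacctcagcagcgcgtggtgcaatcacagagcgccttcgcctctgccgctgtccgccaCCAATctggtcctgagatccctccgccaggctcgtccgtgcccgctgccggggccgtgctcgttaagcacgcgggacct

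The sterol element of Hmgcs1 reads TCACCCCAC and begins at position −137 from the start. TCACNCCAC was found in 1 of 33 windows of the members and in 1.24% of all 32851 windows. CCAAT was found in 60.6% of the member windows and 37.4% of all windows, and GGGCGG in 75.8% and 35.7%. Hmgcs1 held 4 CCAAT and 3 GGGCGG matches, Mvk 5 and 2, and Cyp51 1 and 1, and no match of 1 motif overlapped another in these windows. Windows were found for 24 members. Those of Fdps, Fdft1, Sqle, Abcg1 and Stard4 were not used here. A match is a run of letters, and binding at it was not measured.

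The targeted gene was read in each library before the sterol genes. Myrf lay at 2.79, 3.76 and 3.51 CPM (table units per 1000000 after TMM scaling) in Myrf-kd 1, 2 and 3 and at 3.57, 4.04 and 4.68 CPM in WT 1, 2 and 3. The groups overlapped, and the fitted ratio was 0.819 with a 95% interval from 0.596 to 1.13 (edgeR adjusted p = 0.732). Myrf averaged 0.372 FPKM, below the filter, on 45 to 80 fragments per library, and was added to the test by name. Library totals lay between 50695091 units in WT 2 and 70298511 in WT 3, at about 4 units per fragment. Xist stood at 1449 CPM in library Myrf-kd 3, at 1238 in WT 3 and at no more than 8.16 CPM in the other libraries, so each group held 1 female and 2 male libraries. All markers of rods, cones, bipolar, amacrine and ganglion cells and Mueller glia passed the filter. Summed rod markers lay at 32925 to 35978 CPM in Myrf-kd against 37061 to 54881 in WT, and summed Mueller glia markers at 4261 to 4665 and 4309 to 4811.

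Of the markers of other tissues that passed the filter, edgeR called 0. The summed CPM of 3 such lists nevertheless did not overlap between the groups. Summed cornea markers, of which 3 of 6 passed the filter, lay at 0.919 to 5.74 CPM in Myrf-kd against 14.4 to 22.7 in WT, with Krt5 at 0 in Myrf-kd 1. Oligodendrocyte markers, 3 of 8 past the filter, lay at 71.5 to 80.7 and 82.0 to 92.5 CPM, and 3 of the 8 had a median FPKM below 0.1. Taken singly, the 3 past the filter, Mbp, Cnp and Mal, each overlapped between the groups, with lower estimates in Myrf-kd. Of the 8 only Cldn11 did not overlap, on 0 to 5 fragments per library. Markers of fibroblasts and sclera, 0 of 5 past the filter, lay at 16.1 to 28.2 and 32.0 to 39.1 CPM, while Col1a2 among them overlapped and was highest in Myrf-kd 1. In RNA of a whole tissue, fewer cells of a type and less RNA per cell cannot be told apart. The part of these tissues in the values of the sterol genes was not tested.

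No sterol gene passed the test between Myrf-kd and WT. By the quasi-likelihood test of edgeR, adjusted after Benjamini and Hochberg over all 13674 genes with a threshold of 0.05, 0 of 29 members were called higher and 0 lower. Of all genes 0.0293% were called higher and 0.0146% lower in Myrf-kd, together 0.0439% or 6 genes. DESeq2 and limma called 0 members too. At an unadjusted p under 0.05 by edgeR stood 3 members, Abcg1, Srebf1 and Mvk, and 7.48% of all genes. The CPM of the groups did not overlap in 4 members that lay above WT (Mvk, Pmvk, Cyp51 and Stard4; 7.13% of all genes) and in 3 that lay below (Abcg1, Srebf1 and Tm7sf2; 7.5%). These 7 of 29 stand against 14.6% of all genes in either direction. By an exact two-sided permutation test each of the 7 had the smallest possible p for 3 libraries against 3, 0.1. Groups that do not overlap always reach that p, so it adds nothing to the lack of overlap.

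The data bound most of the differences. In 21 of 29 members the 95% interval of the fitted ratio lay inside 1.5-fold either way, as it did in 69.2% of all genes. The other 8 members were Acat2, Mvk, Mvd, Idi1, Dhcr7, Nr1h2, Nr1h3 and Abca1. For these a ratio of 1.5-fold lay within the interval.

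**Figure D1:**
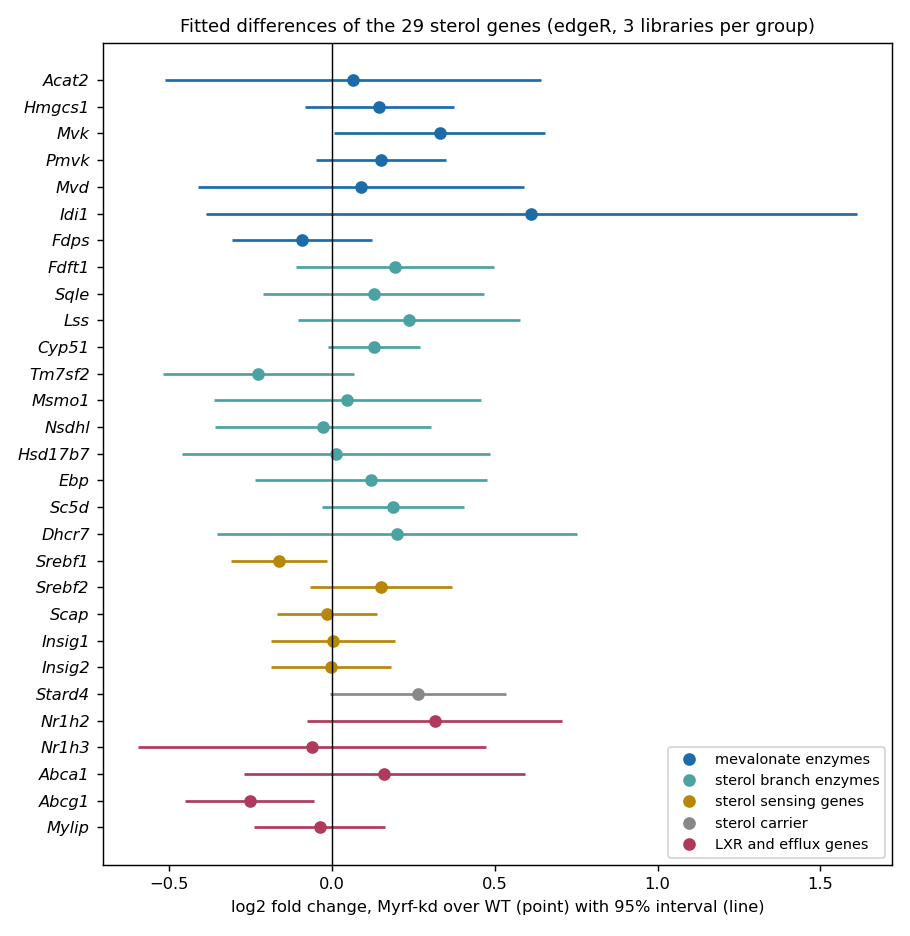
Log2 fold change of each sterol gene, Myrf-kd over WT, by edgeR (points) with its 95% interval (lines), coloured by role, from 3 libraries per group. Most points of the enzymes lie to the right of 0, while the interval lies wholly off 0 in Mvk, Srebf1 and Abcg1 alone, and Idi1 has the widest interval.

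As a group the synthesis enzymes had higher estimates in Myrf-kd in 15 of 18 members, beside 51% of all genes. Their median log2 fold change was 0.13, beside a median of 0.0041 over all genes tested. The 15 were 12 without Myrf-kd 2 and 11 without WT 2, and the median then was 0.085 and 0.090. Of the 11 enzymes that share no annotated exon bases with another gene, 10 had a higher estimate, with a median of 0.12. The 7 mevalonate enzymes had a median of 0.14 and the 11 sterol branch enzymes 0.13.

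Levels per length were compared in FPKM, as the mean over all 6 libraries. The highest enzyme was Hmgcs1 at 32.8 ± 3.58 FPKM (SD, n = 6), which makes the HMG-CoA that feeds the pathway. Fdft1 followed at 15.8 ± 2.34, Pmvk at 15.7 ± 1.19, Cyp51 at 13.3 ± 0.877 and Sc5d at 13.1 ± 1.47 FPKM. Fdft1 and Pmvk lay within their SD of each other, and so did Cyp51 and Sc5d. The lowest enzymes were Tm7sf2 at 2.73 ± 0.311 and Hsd17b7 at 3.25 ± 0.622 FPKM. The sensors lay at 11.2 to 28.99 FPKM, with Insig1 at the top, and the median gene tested was at 5.97 FPKM.

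**Figure D2:**
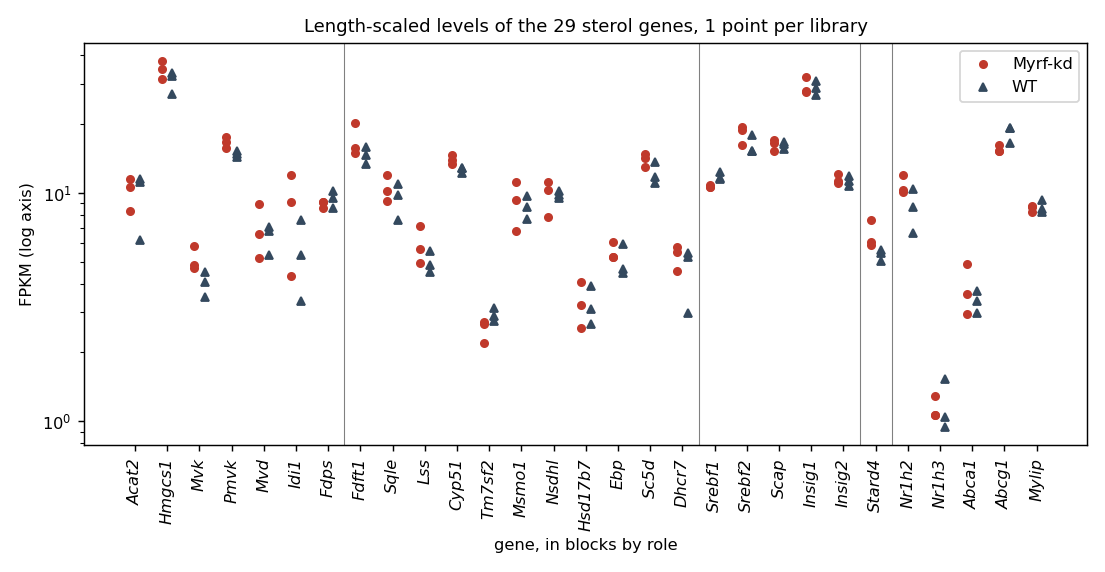
FPKM of each sterol gene in each library on a log axis, in blocks by role, with circles for Myrf-kd and triangles for WT. Hmgcs1 and Insig1 stand highest, Nr1h3 lowest, and the libraries of the groups intermix in most genes.

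The mevalonate enzymes come first in the pathway. Acat2 encodes the cytosolic thiolase that joins acetyl-CoA units. It lay at 34.2, 31.0 and 24.5 CPM in the Myrf-kd libraries 1, 2 and 3 and at 33.8, 18.8 and 33.1 CPM in WT 1, 2 and 3. WT 2 stood apart at the low end, and the other libraries mixed. Hmgcs1 lay at 186, 199 and 167 CPM in Myrf-kd against 177, 148 and 175 CPM in WT. Here too WT 2 was lowest and Myrf-kd 2 highest, with a fitted ratio of 1.11 (95% interval 0.943 to 1.296, edgeR adjusted p = 0.731).

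Mevalonate is then phosphorylated by the kinases Mvk and Pmvk. Mvk (ENSMUSG00000041939, chromosome 5, 114444269 to 114460591) was at 15.0, 14.4 and 18.1 CPM in Myrf-kd against 13.9, 11.1 and 12.8 CPM in WT. All Myrf-kd libraries lay above WT, and the log2 fold change was 0.33 ± 0.14 SE (edgeR adjusted p = 0.666). Pmvk (ENSMUSG00000027952, chromosome 3, 89454541 to 89469013) was at 33.2, 30.7 and 34.9 CPM in Myrf-kd against 30.0, 29.3 and 29.7 CPM in WT. The WT libraries were close together at 29.7 ± 0.381 CPM and the Myrf-kd mean was 32.9 ± 2.09 CPM (SD, n = 3 each), a ratio of 1.11 (edgeR adjusted p = 0.703).

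Mvd, the decarboxylase that yields isopentenyl diphosphate, lay at 14.4, 19.1 and 11.2 CPM in Myrf-kd against 15.3, 11.8 and 14.8 CPM in WT, with the WT libraries inside the range of Myrf-kd. Idi1, the isomerase that interconverts the isoprenoid units, varied more between libraries than any other member. It lay at 17.6, 47.9 and 37.0 CPM in Myrf-kd against 13.6, 31.6 and 21.9 CPM in WT, and its coefficient of variation within groups was 42.7%. Libraries numbered 1 were lowest in both groups and those numbered 2 highest. The fitted ratio of 1.53 for Idi1 had a 95% interval from 0.764 to 3.05 (edgeR adjusted p = 0.735), the largest ratio and the widest interval of the members. Its log2 fold change of 0.61 lay between 0.29 and 0.95 with 1 library left out. Fdps, which makes farnesyl diphosphate, was the mevalonate enzyme with a lower estimate. It lay at 44.8, 43.9 and 41.9 CPM in Myrf-kd against 41.7, 47.3 and 50.2 CPM in WT, and the groups overlapped.

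The sterol branch begins with squalene. Fdft1, squalene synthase, lay at 77.0, 72.2 and 99.0 CPM in Myrf-kd against 77.3, 67.0 and 72.9 CPM in WT. Its estimate leaned on Myrf-kd 3, and the log2 fold change of 0.19 was 0.044 without that library. Fdft1 shares 774 exon bases with Ctsb on the opposite strand. Ctsb lay at 529, 472 and 466 CPM in Myrf-kd against 511, 542 and 514 CPM in WT. The part of reads from the shared bases in the Fdft1 values was not tested. Sqle, squalene epoxidase, at which oxygen enters the pathway, lay at 65.6, 75.7 and 59.3 CPM in Myrf-kd against 69.9, 50.3 and 63.5 CPM in WT. Lss, which closes the rings to lanosterol, lay at 71.3, 88.7 and 61.8 CPM in Myrf-kd against 69.5, 61.9 and 56.9 CPM in WT. In Sqle and Lss alike Myrf-kd 2 was the highest library and the rest overlapped (edgeR adjusted p = 0.821 and 0.712).

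Cyp51 removes a methyl group from lanosterol. Cyp51 (ENSMUSG00000001467, chromosome 5, 4081145 to 4104746) lay at 69.1, 74.2 and 70.9 CPM in Myrf-kd against 65.4, 63.9 and 66.7 CPM in WT. The groups did not overlap and the spread was the smallest of the members, with a coefficient of variation within groups of 2.98%. The difference was small, a log2 fold change of 0.13 ± 0.06 SE (edgeR adjusted p = 0.684). Tm7sf2, a sterol reductase of the next step, lay the other way at 13.8, 13.9 and 11.3 CPM in Myrf-kd against 14.0, 15.3 and 16.3 CPM in WT. All its Myrf-kd libraries were below WT. The log2 fold change was −0.23 ± 0.12 SE (edgeR adjusted p = 0.699), and −0.14 without Myrf-kd 3. Of the exon bases of Tm7sf2 12.1% also belong to Vps51.

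Demethylation goes on with Msmo1, Nsdhl and Hsd17b7. Msmo1 lay at 48.9, 78.5 and 66.4 CPM in Myrf-kd against 69.0, 56.1 and 62.4 CPM in WT, so that Myrf-kd held both the lowest and the highest library. Nsdhl lay at 37.1, 33.6 and 25.8 CPM in Myrf-kd against 32.2, 32.3 and 33.9 CPM in WT, with Myrf-kd 3 low. Its log2 fold change of −0.03 turned positive, to 0.0047, with library totals as the only scaling. Hsd17b7 lay at 19.1, 23.9 and 15.2 CPM in Myrf-kd against 22.9, 16.2 and 18.5 CPM in WT, with a ratio of 1.01.

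The last steps move and reduce double bonds. Ebp, a sterol isomerase, lay at 14.1, 13.8 and 16.3 CPM in Myrf-kd against 12.4, 16.4 and 12.1 CPM in WT. Ebp and Nsdhl are on the X chromosome, and the female libraries were not set apart in them: Myrf-kd 3 and WT 3 were at 16.3 and 12.1 CPM for Ebp and 25.8 and 33.9 CPM for Nsdhl. Sc5d, a desaturase, lay at 80.5, 82.8 and 73.0 CPM in Myrf-kd against 76.9, 63.9 and 66.9 CPM in WT, a ratio of 1.14 (95% interval 0.979 to 1.32, edgeR adjusted p = 0.695). WT 1 lay within the Myrf-kd range and the other WT libraries below it. Dhcr7, which makes cholesterol from its last precursor in this branch, lay at 37.4, 38.6 and 30.7 CPM in Myrf-kd against 36.5, 36.1 and 20.3 CPM in WT. Its log2 fold change of 0.20 rested on the low WT 3 and was −0.031 without that library.

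**Figure D3:**
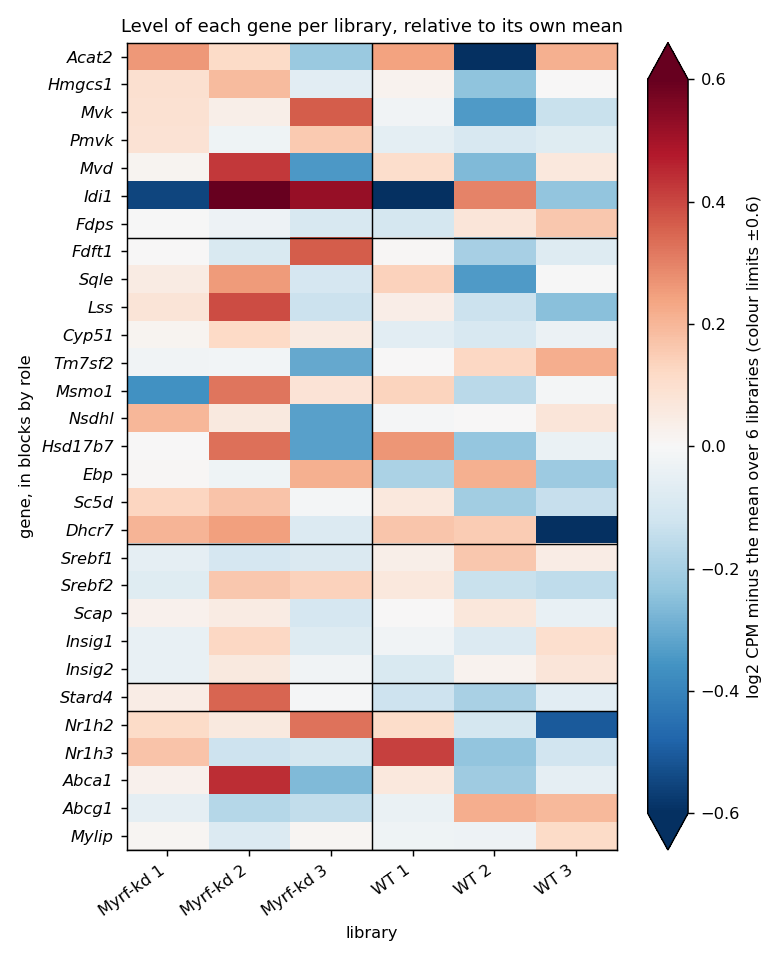
Log2 CPM of each sterol gene in each library minus the gene's mean over the 6 libraries (red higher, blue lower, with the darkest shades also for values past the colour limits), in blocks by role. Myrf-kd 2 is red in most enzymes and WT 2 blue in most, Idi1 has strong shades in several libraries, and Dhcr7 is blue in WT 3.

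Across the enzymes the libraries did not behave alike. Myrf-kd 2 was the highest library in 10 of 18 enzymes and in 14 of 29 members, and in 16.5% of all genes. WT 2 was the lowest in 8 of 18 enzymes and 11 of 29 members, and in 19.2% of all genes. Both held in 6 members, and in 5.32% of all genes. The mean deviation of the 18 enzymes from their own means, on the log2 CPM scale, was 0.02, 0.19 and −0.01 in Myrf-kd 1, 2 and 3. It was −0.01, −0.11 and −0.06 in WT 1, 2 and 3. Myrf-kd 1 and Myrf-kd 3 lay near WT 1, and WT 2 is also the shallowest library.

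The sterol sensors spread less between libraries than the enzymes. Their coefficient of variation within groups had a median of 4.93%, against 13.6% for the enzymes and 10.2% over all genes. Srebf2 lay at 136, 159.6 and 157 CPM in Myrf-kd against 149, 130.1 and 128 CPM in WT, a ratio of 1.11 (95% interval 0.955 to 1.29, edgeR adjusted p = 0.712). Its Myrf-kd 1 lay below WT 1, so the groups overlapped. Scap, the escort, lay at 131 to 146 CPM in Myrf-kd against 136 to 148 CPM in WT.

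Insig1, itself a known SREBP target, lay at 101, 113 and 98.7 CPM in Myrf-kd against 102, 98.5 and 112 CPM in WT, with means of 104 ± 7.90 and 104 ± 6.67 CPM (SD, n = 3 each). Insig2 lay at 44.6, 47.9 and 45.4 CPM in Myrf-kd against 43.1, 46.7 and 48.4 CPM in WT. The ratio was 1.00 for Insig1, with a 95% interval from 0.878 to 1.14, and 0.998 for Insig2, with an interval from 0.878 to 1.13. Estimates this close to 0 changed sign with the filter for Insig1 and with the scaling for Insig2 and Scap.

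Srebf1 encodes SREBP1, which mainly drives fatty acid genes and is a known LXR target. Srebf1 (ENSMUSG00000020538, chromosome 11, 60199089 to 60222581) was at 70.9, 68.5 and 69.3 CPM in Myrf-kd against 75.5, 82.4 and 75.8 CPM in WT. All Myrf-kd libraries lay below WT. The log2 fold change was −0.16 ± 0.06 SE, a ratio of 0.894 with a 95% interval from 0.806 to 0.990 (edgeR adjusted p = 0.666). Of its exon bases 1.94% also belong to Rai1 on the other strand.

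Stard4 encodes a soluble protein that carries cholesterol between membranes and is induced by SREBP2. Stard4 (ENSMUSG00000024378) lay at 39.6, 48.8 and 38.3 CPM in Myrf-kd against 35.2, 33.5 and 36.8 CPM in WT. All Myrf-kd libraries were above WT, with Myrf-kd 2 highest and WT 2 lowest, as in 4 of the 18 enzymes. The log2 fold change was 0.26 ± 0.11 SE (edgeR adjusted p = 0.675), and 0.15 without Myrf-kd 2.

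The efflux side did not have 1 direction. Abcg1, a pump that passes cholesterol to lipoproteins, had the smallest p of all members and the largest estimate below 0. Abcg1 (ENSMUSG00000024030, chromosome 17, 31057675 to 31117988) was at 138, 128 and 129.5 CPM in Myrf-kd against 139.7, 167 and 165 CPM in WT. The highest Myrf-kd library lay just under WT 1, and WT 2 and WT 3 lay well above. The means were 132 ± 5.60 and 157 ± 15.1 CPM (SD, n = 3 each), a ratio of 0.839 with a 95% interval from 0.732 to 0.962 (edgeR adjusted p = 0.666). By unadjusted p Abcg1 ranked 370 among the 13674 genes.

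Abca1, the pump that loads lipid-poor apolipoproteins, lay at 43.4, 57.8 and 35.4 CPM in Myrf-kd against 44.5, 36.8 and 41.0 CPM in WT. Myrf-kd again held both extremes, and the ratio of 1.12 had a 95% interval from 0.829 to 1.51 (edgeR adjusted p = 0.823). Its log2 fold change of 0.16 was −0.049 without Myrf-kd 2. Mylip encodes a ubiquitin ligase that LXR induces and that removes lipoprotein receptors. It lay at 32.8, 30.7 and 32.7 CPM in Myrf-kd against 31.8, 31.8 and 35.1 CPM in WT, a ratio of 0.974 (95% interval 0.847 to 1.12).

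Of the receptors, Nr1h2 (LXR beta) was the more abundant at 9.69 ± 1.82 FPKM over 6 libraries, with Nr1h3 (LXR alpha) at 1.15 ± 0.216 FPKM. Nr1h2 lay at 40.4, 38.9 and 46.8 CPM in Myrf-kd against 40.3, 34.6 and 26.4 CPM in WT. WT 1 lay inside the Myrf-kd range and WT 3 stood low, and the log2 fold change was 0.31 ± 0.17 SE (edgeR adjusted p = 0.697). Without WT 3 it was 0.16, and without both libraries numbered 3 it was 0.080. Nr1h3 lay at 3.80, 3.09 and 3.14 CPM in Myrf-kd against 4.48, 2.86 and 3.11 CPM in WT, on 36 to 72 fragments per library, the fewest of the members.

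**Figure D4:**
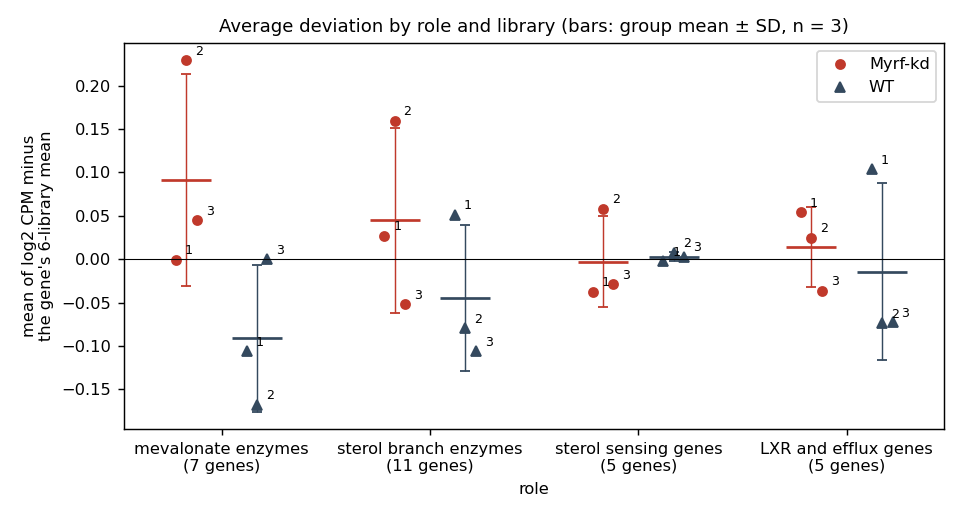
Mean over the genes of a role of log2 CPM minus each gene's 6-library mean, for Myrf-kd (circles) and WT (triangles), with replicate numbers beside the points and bars for the group mean ± SD (n = 3). Myrf-kd 2 lies highest for both enzyme roles and the sensors, the groups meet at 0 in the mevalonate enzymes, and the sensors stay closest to 0.

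Set side by side, synthesis and efflux gave these values. The mean deviation of the 18 enzymes was 0.06 ± 0.11 in Myrf-kd and −0.06 ± 0.05 in WT (log2 CPM, SD, n = 3 each). That of the 5 sensors was −0.0027 ± 0.053 and 0.0027 ± 0.0052, and that of the 5 LXR and efflux genes 0.01 ± 0.05 and −0.01 ± 0.10. The median log2 fold change was 0.13 for the enzymes, −0.0026 for the sensors and −0.04 for the LXR and efflux genes, of which 2 of 5 were higher. The last median was 0.16 without WT 1, and that of the sensors turned positive with upper quartile scaling, library totals alone, a filter at a mean of 5 FPKM and limma on FPKM. The difference between the roles was not tested.

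Genes of the wider pathway that are not members numbered 49 in 5 lists, and 43 passed the filter. Of these 0 were called in either direction by edgeR, with 1 at an unadjusted p under 0.05, and 17 had higher and 26 lower estimates. The median log2 fold change was −0.0027 for 5 other isoprenoid and sterol enzymes, −0.03 for 12 genes of uptake and SREBP processing and 0.0082 for 5 tested genes of esterification and oxysterols. It was −0.10 for 9 tested LXR partners and efflux genes and −0.02 for 12 fatty acid genes driven by SREBP1. Ggps1, which makes geranylgeranyl diphosphate from the product of Fdps, was the gene under 0.05. It lay at 73.1, 77.6 and 73.5 CPM in Myrf-kd against 68.8, 67.1 and 65.9 CPM in WT, without overlap (edgeR adjusted p = 0.666). Of the 43 tested genes, 4 lay above WT without overlap and 1 lay below. Over all genes these shares were 7.13% and 7.5%. The genes named from these lists were those with the smallest p.

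Cyp46a1, which oxidises cholesterol for export from neurons, lay at 14.3, 13.2 and 15.4 CPM in Myrf-kd. In WT it lay at 12.2, 11.1 and 12.6 CPM, also without overlap (edgeR adjusted p = 0.675). Mbtps2, the protease that cuts SREBP free in its membrane, lay at 28.8, 33.1 and 28.2 CPM in Myrf-kd against 27.6, 22.4 and 27.4 CPM in WT (edgeR adjusted p = 0.700). The sterol reductase Lbr was at 38.0 ± 4.35 CPM in Myrf-kd against 42.1 ± 2.39 in WT, and Nceh1, which splits cholesterol esters, at 70.7 ± 9.16 and 78.0 ± 4.36. The LXR partner Rxrb was at 38.2 ± 8.10 and 32.6 ± 2.61 CPM, and the lipid transfer gene Pltp at 12.2 ± 1.01 and 13.7 ± 1.17 (SD, n = 3 each). Of the fatty acid genes, the elongase Elovl6 was at 55.7 ± 3.53 and 48.8 ± 4.81 CPM and the malic enzyme gene Me1 at 213 ± 5.55 and 233 ± 18.1. None of these 6 passed (edgeR adjusted p between 0.697 and 0.747).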

How the data were processed

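RNA of mouse retina was measured in 3 Myrf-kd and 3 WT libraries, grouped and numbered by their titles. Per the submitters' processing notes, the tools StringTie 1.3.0, HISAT2 2.0 and Bowtie 0.12.2 were named beside GRCm38, with no role or order. Per the file headers, the authors deposited an FPKM and a count for each gene and library. The deposited counts were read as estimated counts, since more entries held 4 units than 1, 2 or 3, and rounding changed none. The sources used here do not state strand use, and reads of genes that overlap cannot be separated. In GENCODE vM21, 10 members share exon bases with another gene.

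Myrf and every gene averaging 1 FPKM or more were fitted together with edgeR 4.0.16 (quasi-likelihood, TMM, genotype only), with Benjamini-Hochberg adjustment, a threshold of 0.05 and two-sided tests. CPM are units over the TMM-scaled total. The SE is the log2 fold change over the root of F, and 95% intervals use it with residual and prior degrees of freedom. In simulated counts the self-test returned the direction of most known changes and the median size of the largest. No share of changes was required to pass the threshold, so the self-test does not show that small changes would be called. Named genes are all 29 members, Myrf and up to 2 genes of each wider list with the smallest p; 1 of these is not reported here. The members and lists were chosen with earlier results of these data known. Alternatives were other filters, scalings, tools (DESeq2 1.42.0, limma 3.58.1 on log2(FPKM + 1) and log2(FPKM + 0.1)), a replicate block, units divided by 4 and libraries left out. Between the 2 most alike libraries the chi-square over its degrees of freedom was 18.3, so none looked like 1 library deposited again. This does not show that they come from separate animals.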

Additional observations from a re-analysis of the deposited data

How the results depend on the processing

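Of 29 members, 0 were called under any of 17 alternatives, and the adjusted p of a member lay between 0.417 and 1.00 over them. The count over all genes, 6 by edgeR, was 2 with a mean FPKM of at least 5, 53 by DESeq2, 0 with the replicate block (703 at an unadjusted p under 0.05) and 22 without both libraries numbered 3. It lay between 9 and 16 with 1 library left out. Correlations of same-numbered libraries' deviations were −0.05, 0.03 and 0.10, so the replicate numbers do not pair them. The median of the enzymes lay between 0.08 and 0.18 with 1 library left out. That of the sensors lay between −0.045 and 0.035 and was 0.045 without both libraries numbered 3, and that of the LXR and efflux genes lay between −0.062 and 0.16.

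The sign held in 16 members under all alternatives and turned in 13. A mean FPKM of at least 5 left 23 members with a value. With no filter Insig1 was at −0.00079, and with a mean FPKM of at least 5 Insig2 was at 0.011. Insig2 was at 0.0067 with upper quartile factors. With library totals Nsdhl, Scap and Insig2 were at 0.0047, 0.018 and 0.032. By limma on log2(FPKM + 1) Scap and Insig2 were at 0.0014 and 0.016, and on log2(FPKM + 0.1) at 0.0015 and 0.017. Without both libraries numbered 3, Nsdhl, Ebp, Scap, Insig2 and Nceh1 were at 0.13, −0.037, 0.0024, 0.045 and 0.0020. With 1 library left out, log2 fold changes lay between −0.16 and 0.20 for Acat2, −0.13 and 0.26 for Mvd, −0.12 and 0.21 for Msmo1, −0.14 and 0.11 for Nsdhl, and −0.17 and 0.16 for Hsd17b7. They lay between −0.031 and 0.34 for Dhcr7, −0.045 and 0.029 for Scap, −0.060 and 0.056 for Insig1, −0.048 and 0.035 for Insig2, −0.18 and 0.16 for Nr1h3, −0.049 and 0.31 for Abca1, and −0.062 and 0.011 for Mylip. The cause was not tested. Counts of enzymes without a library or without shared exons were added after seeing the data.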

Other observations

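Scd2, a desaturase gene among the SREBP1 fatty acid genes, was picked out after its values were seen. It lay at 655 CPM in Myrf-kd 1 and at 192 and 115 CPM in Myrf-kd 2 and 3, with WT 1, 2 and 3 at 145, 163 and 157 CPM. Its log2 fold change of 1.05 ± 0.59 SE did not pass (edgeR adjusted p = 0.703). Srebf1, the gene of SREBP1, was at 70.9 CPM in Myrf-kd 1, against 68.5 and 69.3 CPM in Myrf-kd 2 and 3. On the log2 CPM scale the 12 fatty acid genes, Scd2 included, had a mean deviation of 0.17 in Myrf-kd 1. Most of that mean comes from Scd2 itself, so it does not describe the other fatty acid genes. Myrf-kd 1 was the highest library in 2 of the 12, Scd2 among them. The mean deviation of the 18 cholesterol enzymes in Myrf-kd 1 was 0.02. The cause of the Scd2 value was not tested.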
